A study of Homo sapiens with 24 samples.

Results

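The late phase of EZH2 inhibition was described here from 6 of the 24 arrays of the series, the 3 hybridised with RNA of inhibitor-treated cells taken on day 6 and the 3 of inhibitor-treated cells taken on day 3. All 19775 genes with a probe set of a single gene symbol were compared, each through its brightest probe set (mean over the 24 arrays). The cells were of Karpas422, a human line derived from a diffuse large B cell lymphoma (DLBCL) that carries the EZH2 Y641N substitution in every group. They had received an EZH2 inhibitor at 5 uM or DMSO, the solvent control, and were harvested after 1, 2, 3 or 6 days with 3 biological replicates per group, 8 groups in all. The RNA was labelled with biotin and read on single-colour Affymetrix U133 Plus 2 arrays. The labels do not name the inhibitor, and the cells come from 1 line.

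EZH2 is the enzyme of Polycomb repressive complex 2 (PRC2) and methylates lysine 27 of histone H3 which keeps the marked genes silent. In the germinal centre, EZH2 is high in dividing B cells and holds back genes of cell cycle exit, antigen presentation and plasma cell differentiation. The Y641N change alters the active site so that the enzyme deposits more of the trimethylated form of the mark. After inhibition the mark is lost mainly as cells divide and dilute old histones.

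Values are RMA expression values on a log2 scale, and a difference of 1 between groups is a 2-fold difference. RMA gives no call of presence, so differences of genes near the floor of the array understate the true fold. The 24 arrays had medians of 4.96 to 5.03. The 6 B lineage markers examined (MS4A1, PAX5, CD79A, CD79B, CD22 and BLK) had values of 8.45 to 13.29 over the 6 arrays. CD79A, a chain of the B cell receptor, had 9.17, 9.27 and 9.32 at day 6 against 8.97, 9.07 and 9.15 at day 3, and MS4A1, which encodes CD20, differed by 0.13. PAX5, the factor that maintains B identity, had 11.74, 11.86 and 11.84 at day 6 against 11.57, 11.52 and 11.51 at day 3, a difference of 0.28 that did not pass the test (adjusted p = 0.095) but did once replicate number entered as a block (adjusted p = 0.021). CD79B, CD22 and BLK were called higher, by 0.86, 0.56 and 0.21. The call of CD22, an inhibitory coreceptor, was lost without inhibitor day 6 replicate 2 or inhibitor day 3 replicate 1 (adjusted p = 0.11 in both), and that of BLK, a kinase of the receptor, in the fit limited to the 6 arrays (adjusted p = 0.14). Marker lists of other cell types were examined as well. In the T and NK cell list 0 of 23 genes rose and 2 fell (8.70%, against 10.6% of all genes). CD247, a signalling chain of the T cell receptor, was 1 of these, with 8.67, 8.93 and 9.06 at day 6 against 9.31, 9.53 and 9.93 at day 3 and DMSO means of 10.14 at day 6 and 10.03 at day 3. Its call was lost without inhibitor day 6 replicate 1 (adjusted p = 0.065) or inhibitor day 3 replicate 3 (adjusted p = 0.085). In the stromal, endothelial and epithelial list 0 of 20 rose and 1 fell (5.0%). As single arrays were left out, 0 to 4 of the T and NK genes fell. The myeloid list, 1 higher (4.76%) and 2 lower (9.52%) of 21, had array means of 4.42 to 4.49 at day 6 and 4.26 to 4.37 at day 3, and its 1 member that rose was MPEG1.

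Between day 3 and day 6 of treatment, 4090 genes changed at an adjusted p under 0.05, which is 20.7% of the genes tested (limma, Benjamini-Hochberg adjustment over all genes). Of these, 2001 genes (10.1% of those tested) were higher at day 6 and 2089 (10.6%) were lower. A change of at least 2-fold was reached by 210 genes that rose (1.06%) and 111 that fell (0.561%), so more of the large differences were rises. The median difference over all genes was -0.04. The 3 day 6 arrays lay above all 3 day 3 arrays for 1883 of the genes called higher and below them for 2006 of those called lower, while 32.6% of all genes were separated in one direction or the other.

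The same interval in DMSO gave no called gene. There, 882 genes had an unadjusted p under 0.05 (4.46% of those tested) and the smallest adjusted p was 0.71. The count in DMSO depended on 1 array: without DMSO day 3 replicate 1, 33 genes were called, 2 higher and 31 lower. The change in the inhibitor arm was also tested directly against the change in DMSO. This difference between arms was called for 2474 genes (12.5%), 1182 higher (5.98%) and 1292 lower (6.53%). With the replicate block it was called for 3715 genes, 1783 of them higher; the shares that follow are from the model without the block. The difference was called in the same direction for 1133 of the 2001 genes that rose under the inhibitor (56.6%) and for 1207 of the 2089 that fell (57.8%), and for 0 genes in the opposite direction.

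**Figure D1:**
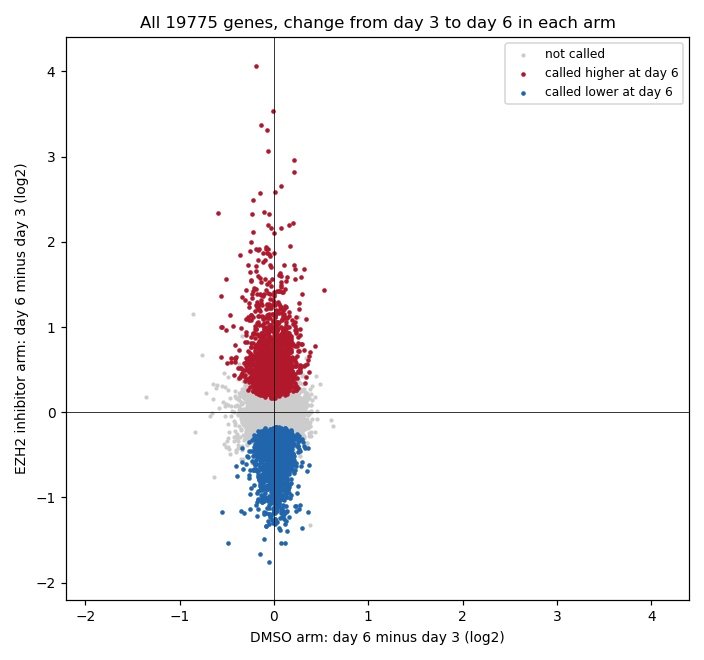
Each point is 1 of 19775 genes, with the day 6 minus day 3 difference (log2) in the EZH2 inhibitor arm on the vertical axis and in the DMSO arm on the horizontal axis, 3 arrays per group. Red points were called higher and blue points lower at day 6 under the inhibitor. The spread runs up to 4.06 and down to -1.75 in the inhibitor arm, while most genes lie close to 0 in DMSO.

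The genes with the largest rises included several immune genes. ZNF595, a zinc finger gene, had 9.26, 9.43 and 8.87 at day 6 against 4.88, 5.01 and 5.49 at day 3, a difference of 4.06 ± 0.18 (SE; adjusted p = 1.9e-12). The day 6 values stood far above both the day 3 values and the DMSO means of 3.57 at day 6 and 3.76 at day 3, though only 1 of the 2 probe sets of ZNF595 was called. TNFRSF21, which encodes death receptor 6, had 8.40, 8.61 and 8.78 at day 6 against 4.85, 4.86 and 5.48 at day 3, a difference of 3.54 ± 0.15 (adjusted p = 6.4e-13), with both of its probe sets called. MPEG1, which encodes the pore-forming protein perforin-2 of phagocytes, had 11.22, 11.09 and 11.05 at day 6 against 7.19, 7.85 and 8.23 at day 3, a difference of 3.36 ± 0.22. It was the largest change in the myeloid list, whose other members showed no such rise: LYZ, which encodes lysozyme, differed by 0.26 (adjusted p = 0.54) and CSF1R, the receptor of the macrophage growth factor, fell by 0.31 (adjusted p = 0.016), a call lost without inhibitor day 3 replicate 1 (adjusted p = 0.12).

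Some genes lay close to their DMSO level at day 3 and far above it at day 6. RAG1, one of the recombinases that assemble antigen receptor genes, had 6.00, 6.12 and 6.50 at day 6 against 2.64, 2.91 and 3.14 at day 3, a difference of 3.31 ± 0.12 (adjusted p = 4.6e-14). Its DMSO means were 2.53 at day 6 and 2.61 at day 3, so the day 3 arrays of the inhibitor arm lay near the DMSO level and those of day 6 well above it. Of its 2 probe sets, 1 was called. TMEM71, a gene for a transmembrane protein, had 6.20, 6.23 and 6.41 at day 6 against 3.44, 3.18 and 3.04 at day 3, and DMSO means of 2.74 at day 6 and 2.80 at day 3; its day 3 arrays already lay just above the 3 of DMSO. SMAD1, which carries signals of bone morphogenetic proteins to the nucleus, had 5.58, 6.32 and 6.93 at day 6 against 4.02, 3.96 and 3.79 at day 3, a difference of 2.35 ± 0.22 (adjusted p = 9.1e-08). GCA, which encodes the calcium-binding protein grancalcin, differed by 2.66 ± 0.19, and TMEM255A, a further transmembrane protein gene, by 2.59 ± 0.12.

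Other strong risers had already left the DMSO level by day 3, with PMAIP1 an exception. CXCR4, the chemokine receptor that draws B cells to the dark zone of the germinal centre, had 8.36, 9.38 and 9.98 at day 6 against 5.92, 5.83 and 7.11 at day 3, a difference of 2.96 ± 0.35 (adjusted p = 2.1e-06). The 3 day 6 arrays spread over more than 1 unit but did not overlap those of day 3. TCL1A, a coactivator of the kinase AKT, had 10.60, 11.51 and 11.54 at day 6 against 8.77, 8.50 and 8.69 at day 3, a difference of 2.57 ± 0.31. AIM2, a sensor of cytosolic DNA, rose by 2.32 ± 0.24, THEMIS2, an adaptor of B cell receptor signalling, by 2.33 ± 0.13, and SYTL2, a gene of vesicle trafficking, by 2.22 ± 0.26. PMAIP1, which encodes the pro-apoptotic BH3-only protein NOXA, had 11.81, 11.98 and 12.20 at day 6 against 9.29, 9.71 and 9.99 at day 3. Its DMSO arrays had 10.31, 9.80 and 9.29 at day 6 and 8.93, 11.32 and 10.93 at day 3, and those of day 3 overlapped the inhibitor arrays of that day. The difference was 2.33 ± 0.38 within the inhibitor arm and 2.93 ± 0.53 between arms, which came to 3.66 without DMSO day 3 replicate 1 and 2.47 without DMSO day 3 replicate 2.

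**Figure D2:**
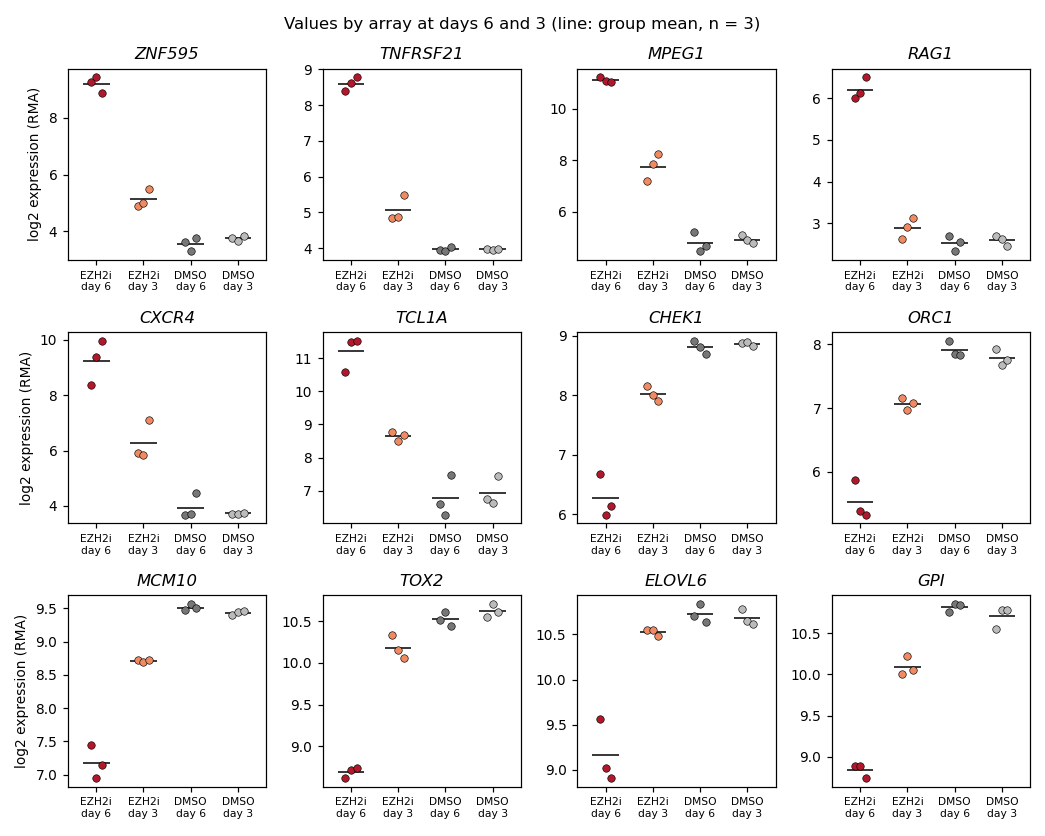
Log2 expression (RMA) of 12 genes in each array, with EZH2 inhibitor day 6 at left, then inhibitor day 3, DMSO day 6 and DMSO day 3; points are arrays and lines are means of 3. For RAG1 the day 6 inhibitor arrays lie at 6.00 to 6.50 and those of day 3 at 2.64 to 3.14, and for CHEK1 they lie at 5.99 to 6.68 and 7.91 to 8.16.

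Several of the genes with the largest falls act in DNA replication. CHEK1, the checkpoint kinase that guards replicating DNA, had 6.68, 5.99 and 6.14 at day 6 against 8.16, 8.0 and 7.91 at day 3, a difference of -1.75 ± 0.12 (adjusted p = 2.6e-09). Its values lay below those of DMSO, with means of 8.81 at day 6 and 8.86 at day 3, in both inhibitor groups and further below at day 6. ORC1, a subunit of the complex that marks replication origins, had 5.88, 5.39 and 5.33 at day 6 against 7.16, 6.97 and 7.08 at day 3, a difference of -1.54 ± 0.13. MCM10, which helps to start the replicative helicase, had 7.44, 6.95 and 7.15 at day 6 against 8.73, 8.70 and 8.72 at day 3, a difference of -1.54 ± 0.10. The helicase subunit genes MCM4 and MCM6 differed by -1.40 and -1.32, the origin licensing factor gene CDC6 by -1.31, and UHRF1, which couples DNA methylation to replication, by -1.31. Genes outside replication among the largest falls were TOX2, a high mobility group box factor (-1.48), ELOVL6, a fatty acid elongase (-1.36), DNAI1, a dynein chain of cilia (-1.66), and the homeobox gene DLX2 (-1.54).

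The whole list of DNA replication and G1/S genes moved together. All 45 measured members fell, with a median difference of -0.99 against -0.04 over all genes and a range of -1.54 to -0.43, and all 45 were also lower in the test of the difference between arms. In DMSO the median of the list was 0.03. The list includes GINS2 of the helicase complex (-1.17), RRM2 of ribonucleotide reductase (-1.22), TYMS, the target of antifolates (-0.91), and CCNE2, a G1/S cyclin (-1.05). Of the 59 mitotic and G2/M genes 57 fell, with a median of -0.97, and 54 of the 59 were lower in the test between arms. BUB1, a spindle checkpoint kinase, had 8.67, 8.24 and 8.26 at day 6 against 9.76, 9.65 and 9.56 at day 3 (-1.27 ± 0.10), SPC25 of the kinetochore differed by -1.30, TTK, another checkpoint kinase, by -1.23, and CCNB1, the mitotic cyclin, by -1.02. INCENP and CDC25B were the 2 members not called. In bulk RNA, fewer dividing cells and less of these transcripts in each dividing cell cannot be told apart.

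Promoters of 3 replication genes that fell are shown because each holds an E2F-type site, the element through which E2F factors act on S phase genes. ORC1, MCM10 and MCM4 fell more than these and are not shown. They are MCM6 (-1.32 ± 0.11), MCM7, another helicase subunit (-1.17), and CDC25A, the phosphatase that opens the G1/S transition (-1.10). The 250 bases before each start site are given 5' to 3' on the gene's strand, from RefSeq on GRCh38.p14, with matches to TTTGGCGC or TTTCGCGC on either strand in capitals. Their positions are MCM6 chr2:135876444-135876693 on the minus strand, MCM7 chr7:100101398-100101647 on the minus strand and CDC25A chr3:48188418-48188667 on the minus strand.
MCM6: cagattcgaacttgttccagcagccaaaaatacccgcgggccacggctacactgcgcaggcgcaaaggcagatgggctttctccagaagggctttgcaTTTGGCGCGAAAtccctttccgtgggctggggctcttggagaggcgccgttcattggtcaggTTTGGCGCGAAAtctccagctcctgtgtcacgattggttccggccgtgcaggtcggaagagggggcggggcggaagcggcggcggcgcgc
MCM7: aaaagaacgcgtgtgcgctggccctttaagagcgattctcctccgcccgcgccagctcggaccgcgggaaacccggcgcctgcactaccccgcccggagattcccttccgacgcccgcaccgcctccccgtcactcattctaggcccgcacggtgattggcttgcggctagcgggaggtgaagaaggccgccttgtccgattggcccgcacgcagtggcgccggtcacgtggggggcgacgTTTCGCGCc
CDC25A: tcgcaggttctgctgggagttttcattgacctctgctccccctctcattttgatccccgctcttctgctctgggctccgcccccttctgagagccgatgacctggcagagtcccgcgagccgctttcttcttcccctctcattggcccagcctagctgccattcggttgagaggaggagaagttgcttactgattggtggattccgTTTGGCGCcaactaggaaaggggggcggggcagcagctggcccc
MCM6 carries the site in 2 places, and in each the forms on the opposite strands overlap. Such a match was present in 8 of the 40 replication list promoters available and in 0.996% of all 27305 promoters. It was present in 2.42% of the promoters of genes called lower and in 1.3% of those of the genes tested.

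Promoters of 3 mitotic genes are shown for a different pair of elements, TTTGAA, the core of the cell cycle homology region through which the DREAM complex holds mitotic genes down, and CCAAT, the site of NF-Y. They are SPC25, DLGAP5, a spindle protein gene (-1.25), and CDC20, an activator of the anaphase promoting complex (-1.16). Both motifs are in capitals on whichever strand they lie, and they do not overlap each other in these windows. The windows are SPC25 chr2:168890431-168890680 on the minus strand, DLGAP5 chr14:55191586-55191835 on the minus strand and CDC20 chr1:43358731-43358980 on the plus strand.
SPC25: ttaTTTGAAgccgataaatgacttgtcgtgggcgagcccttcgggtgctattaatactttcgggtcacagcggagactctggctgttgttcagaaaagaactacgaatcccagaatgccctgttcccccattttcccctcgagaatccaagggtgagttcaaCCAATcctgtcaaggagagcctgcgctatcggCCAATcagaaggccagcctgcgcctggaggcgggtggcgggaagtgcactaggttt
DLGAP5: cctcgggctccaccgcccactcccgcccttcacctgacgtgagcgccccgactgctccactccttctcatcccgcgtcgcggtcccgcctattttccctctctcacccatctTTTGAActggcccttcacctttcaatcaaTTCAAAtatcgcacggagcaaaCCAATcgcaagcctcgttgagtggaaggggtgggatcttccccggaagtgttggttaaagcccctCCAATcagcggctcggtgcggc
CDC20: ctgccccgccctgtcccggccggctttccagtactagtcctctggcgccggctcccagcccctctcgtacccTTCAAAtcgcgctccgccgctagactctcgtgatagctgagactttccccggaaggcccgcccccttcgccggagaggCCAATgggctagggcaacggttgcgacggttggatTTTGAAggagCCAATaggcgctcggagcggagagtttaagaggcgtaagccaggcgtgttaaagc
TTTGAA was found in 27 of 50 mitotic promoters (54.0%) against 13.6% of all promoters, and CCAAT in 37 of 50 (74.0%) against 33.0%. Over all genes called lower, TTTGAA was in 10.9% of promoters and CCAAT in 38.3%, against 10.6% and 34.1% of the genes tested. These shares thus describe the list more than the genes that fell. A match is a description of these letters and not evidence that a factor binds there.

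Growth genes fell with smaller steps. In the list of the MYC network and ribosome biogenesis 21 of 42 genes fell and 1 rose, with a median of -0.28. FBL, the methyltransferase of ribosomal RNA, had 11.01, 10.79 and 10.82 at day 6 against 11.71, 11.64 and 11.56 at day 3, a difference of -0.76 ± 0.07 (adjusted p = 8e-08). MYC, the growth-promoting transcription factor, had 11.66, 11.18 and 11.20 at day 6 against 12.01, 11.77 and 11.85 at day 3, a difference of -0.53 ± 0.12 (adjusted p = 0.0034). The cytosolic ribosomal protein genes, by contrast, had a median of 0.03 over 39 members, with 1 higher and 1 lower, and neither call held when the fit was limited to the 6 arrays. Heat shock and chaperone genes fell in 11 of 19 cases, among them HSPE1, a co-chaperonin of mitochondria (-0.76), and CCT5, a subunit of the cytosolic chaperonin (-0.58).

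The FOXO and quiescence list moved upwards. Of its 21 genes 14 rose and 0 fell, with a median of 0.49. YPEL5, of a family linked to growth arrest, had 10.59, 10.70 and 10.61 at day 6 against 8.61, 9.08 and 9.29 at day 3, a difference of 1.64 ± 0.15 (adjusted p = 1.1e-07). YPEL3 rose by 1.13 ± 0.20 and PIK3IP1, an inhibitor of phosphoinositide 3-kinase, by 0.93 ± 0.09. FOXO1 itself had 10.01, 9.95 and 10.03 at day 6 against 9.48, 9.43 and 9.49 at day 3, a difference of 0.53 ± 0.06. Of the 7 CDK inhibitor genes, none rose and 2 fell (28.6%, against 10.6% of all genes), CDKN3 by 0.59 (adjusted p = 0.0015) and CDKN2A. CDKN1A, which encodes p21, differed by 0.07 and CDKN1B, which encodes p27, by 0.16 (adjusted p = 0.48). CDKN2A, which encodes p16 and is a classical PRC2 target, fell by 0.37 (adjusted p = 3.3e-05), with 8.55, 8.66 and 8.61 at day 6 against 8.99, 8.97 and 8.97 at day 3. Stress genes of the p53 target list were split, 6 higher and 3 lower of 24 (25.0% and 12.5%, against 10.1% and 10.6% of all genes). GADD45A, a growth arrest gene, rose by 1.95 ± 0.22 and TP53INP1 by 1.60 ± 0.13, with 1 of the 3 probe sets of TP53INP1 called. CDKN1A of the same list did not pass the test and TRIAP1 fell by 0.47. With the replicate block 6 members were lower, and 1 was without inhibitor day 6 replicate 2 or 3 or inhibitor day 3 replicate 2.

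**Figure D3:**
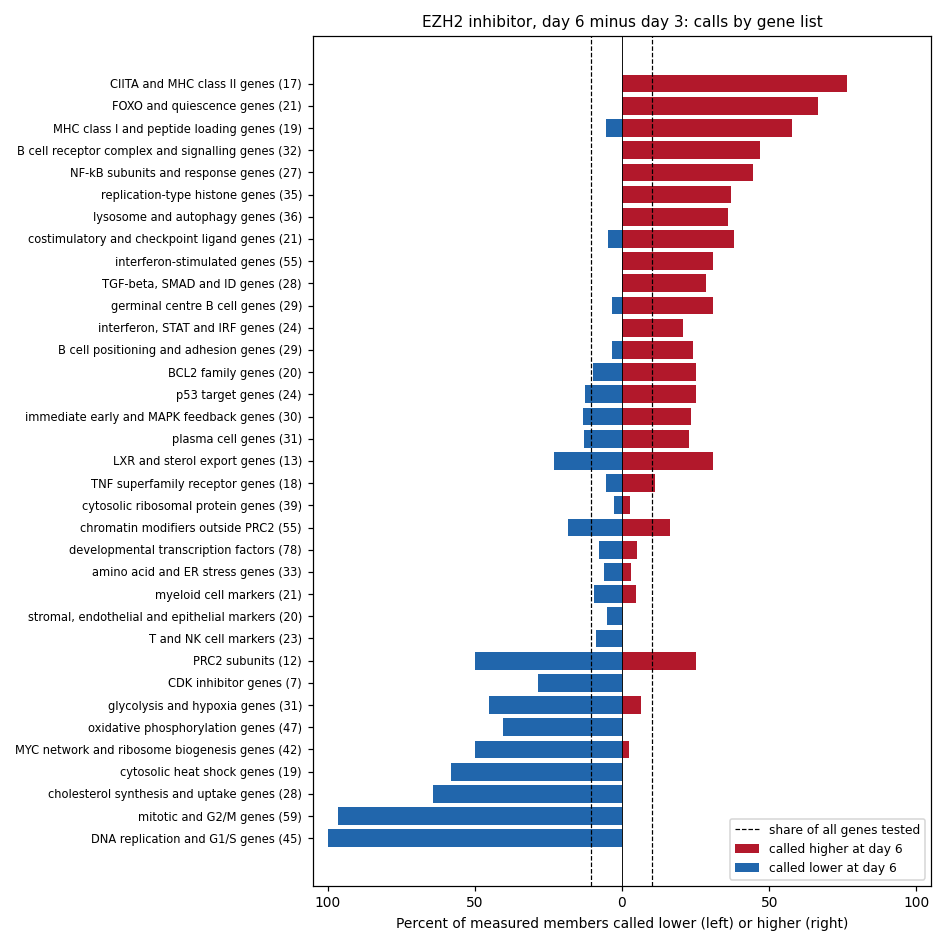
Percent of the measured members of each gene list (number in brackets) called higher (red, to the right) or lower (blue, to the left) at day 6 against day 3 of EZH2 inhibitor treatment; dashed lines mark 10.1% and 10.6%, the shares of all genes. The DNA replication list reaches 100% lower and the MHC class II list 76.5% higher.

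Lipid and energy metabolism fell. In the cholesterol and fatty acid synthesis list 18 of 28 genes fell and 0 rose, with a median of -0.45, and 15 were lower in the test between arms. SCD, which makes monounsaturated fatty acids, had 10.72, 10.37 and 10.58 at day 6 against 11.63, 11.87 and 11.90 at day 3, a difference of -1.24 ± 0.11 (adjusted p = 3.1e-08). FASN, the fatty acid synthase, had 6.78, 6.73 and 6.91 at day 6 against 7.76, 8.12 and 8.04 at day 3, a difference of -1.17 ± 0.13, with 1 of its 2 probe sets called. DHCR7 and EBP, both late enzymes of cholesterol synthesis, differed by -0.97 and -0.95. The sterol-regulated factor gene SREBF1 (-0.86) and INSIG1, which holds its protein back in the endoplasmic reticulum (-0.91), fell as well. The same 2 genes and SCD were among the 6 genes that were called higher at day 2 against day 1 of treatment and lower at day 6 against day 3. In that early step 184 genes were called, 0.93% of those tested, 151 higher (0.764%) and 33 lower (0.167%). This count is unsteady: 674 genes were called with the replicate block, 59 in a fit limited to the 6 arrays of that step, and 42 to 178 as single arrays were left out. The DMSO means followed a like course up to day 3. SCD had means of 10.84, 11.32, 11.80 and 10.56 under the inhibitor on days 1, 2, 3 and 6, and 10.66, 11.31, 11.75 and 11.82 in DMSO. The inhibitor arm thus ran beside DMSO up to day 3 and lay below it at day 6.

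Lysosome genes rose in part, and sterol export genes were divided. ABCA7, a lipid transporter gene, had 8.61, 8.87 and 8.72 at day 6 against 7.35, 7.32 and 7.88 at day 3 (1.22 ± 0.12). NPC2, which moves cholesterol out of lysosomes, rose by 1.17 ± 0.14. The list of LXR and sterol export genes as a whole had a median of -0.06. Of its 13 members 4 were higher and 3 lower (30.8% and 23.1%, against 10.1% and 10.6% of all genes). Lower members numbered 5 with the replicate block and 1 without inhibitor day 6 replicate 2 or 3. In the lysosome and autophagy list 13 of 36 genes rose (36.1%, against 10.1% of all genes) and 0 fell. PSAP, the precursor of the saposins (1.05 ± 0.09), and CTSO, a cathepsin (1.32 ± 0.18), were among those that rose. The count of 13 became 7 without inhibitor day 3 replicate 1 and 8 without inhibitor day 6 replicate 3. Glycolysis and hypoxia genes fell in 14 of 31 cases and rose in 2 (1 without any of 4 of the arrays in turn), with a median of -0.34. LDHA, a lactate dehydrogenase gene, had 12.39, 12.24 and 12.47 at day 6 against 13.04, 13.14 and 13.07 at day 3, a difference of -0.72 ± 0.07 (adjusted p = 1.6e-07), and GPI, an early enzyme of glycolysis, differed by -1.26 ± 0.09. Oxidative phosphorylation genes fell in 19 of 47 cases with small steps, a median of -0.19 and at most -0.54, and in a fit limited to the 6 arrays only 5 were called.

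Antigen presentation genes rose. In the list of CIITA and MHC class II genes 13 of 17 members rose and 0 fell, with a median of 0.46. HLA-DMB, which helps to load peptides onto class II molecules, had 10.10, 10.32 and 10.12 at day 6 against 9.39, 9.36 and 9.21 at day 3, a difference of 0.86 ± 0.09 (adjusted p = 5.4e-07). Its DMSO means of 9.53 at day 6 and 9.49 at day 3 lay above the day 3 arrays of the inhibitor arm. HLA-DOB rose by 1.20 ± 0.18 and HLA-DOA by 0.85 ± 0.10, both encoding chains of HLA-DO, a modulator of peptide loading. CD74, the invariant chain, rose by 0.37. Of 19 MHC class I and peptide loading genes 11 rose, with a median of 0.32, and 1 fell, PDIA3, a disulfide isomerase whose call was lost without any of 4 of the arrays in turn. HLA-E had 13.04, 13.01 and 12.88 at day 6 against 11.74, 12.31 and 12.31 at day 3 (0.85 ± 0.12), HLA-B rose by 0.65 ± 0.12, and NLRC5, the class I transactivator, by 0.83 ± 0.21. Probe sets of closely related HLA genes can cross-hybridise, so the values of single HLA genes are less certain than the direction of the group.

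Costimulatory and checkpoint ligand genes rose in 8 of 21 cases and fell in 1 (38.1% and 4.76%, against 10.1% and 10.6% of all genes). CD40, the receptor for T cell help, had 8.56, 9.22 and 9.24 at day 6 against 7.38, 7.96 and 8.0 at day 3, a difference of 1.23 ± 0.17 (adjusted p = 1.2e-05), with all 4 of its probe sets called. CD86, a ligand of CD28 on T cells, had 8.77, 9.42 and 8.99 at day 6 against 7.72, 8.19 and 7.93 at day 3 (1.11 ± 0.19). CD58, a ligand of the T cell molecule CD2, fell by 0.43. NF-kB subunits and response genes rose in 12 of 27 cases (44.4%, against 10.1% of all genes) and fell in 0, with a median of 0.31. REL, an NF-kB subunit central to B cells, had 9.38, 9.76 and 9.25 at day 6 against 8.69, 8.81 and 8.64 at day 3 (0.75 ± 0.13). TNFAIP3, a feedback inhibitor of the pathway, rose by 0.69, CCL4, a chemokine gene, by 1.68 ± 0.40 and BCL2A1, an anti-apoptotic target, by 1.08 ± 0.26. CCL4 had 8.76, 9.02 and 9.42 at day 6 against 6.88, 7.33 and 7.95 at day 3 under the inhibitor. Its DMSO arrays had 9.34, 7.57 and 8.19 at day 6 and 6.89, 9.07 and 8.19 at day 3, so they overlapped the inhibitor arrays on both days. The difference between arms, 1.36, did not pass the test (adjusted p = 0.13).

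Interferon-stimulated genes showed a split pattern. Of 55 genes 17 rose between day 3 and day 6 (30.9%, against 10.1% of all genes) and 0 fell, with a median of 0.39. Between day 1 and day 2, 32 had risen, with a median of 1.09, where 0.764% of all genes were called higher. Early calls were unsteady, with 36 to 143 genes higher over all genes as single arrays were left out. The count of 32 was not recomputed in the alternatives. RSAD2, which encodes the antiviral protein viperin, had 12.49, 11.89 and 11.53 at day 6 against 9.64, 11.06 and 10.90 at day 3, a difference of 1.43 ± 0.33 (adjusted p = 0.0026). IFIH1, a sensor of double-stranded RNA, had 10.08, 10.04 and 9.56 at day 6 against 7.81, 9.30 and 8.51 at day 3 (1.35 ± 0.29). Several classical members did not pass the late test: IFIT1 had 11.78, 11.58 and 11.58 at day 6 against 10.75, 11.88 and 11.91 at day 3, a difference of 0.13 ± 0.40, MX1 differed by 0.13 and OAS1 by 0.03. These 3 genes overlapped between the days, with inhibitor day 3 replicate 1 the lowest array in each.

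The level of day 3 replicate 1 moved with these genes. The mean of the interferon-stimulated list was 10.19 to 10.45 over the day 6 arrays and 9.35 to 10.06 over the day 3 arrays, with replicate 1 at the low end. Without that array 10 of the 55 genes rose. IFI27, which had 13.47, 13.46 and 13.46 at day 6 against 8.99, 11.50 and 12.43 at day 3 (2.49 ± 0.68, adjusted p = 0.01), then differed by 1.49 and lost its call (adjusted p = 0.1). Its 3 day 6 values lay within 0.01 of each other near the top of the scale, while those of day 3 ranged over more than 3 units. Among the interferon, STAT and IRF genes 5 of 24 rose (20.8%, against 10.1% of all genes), or 9 with the replicate block. IRF1, an interferon-induced transcription factor, had 7.95, 8.04 and 8.04 at day 6 against 6.46, 7.45 and 7.35 at day 3 (0.92 ± 0.18), and JAK1, a receptor kinase, rose by 0.65 ± 0.09.

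Promoters of 3 interferon-stimulated genes that rose in the late step are shown with the core of the interferon-stimulated response element (GAAA, any 2 bases, GAAA) in capitals on either strand. They are IFI27, IFIH1 and GBP1, an interferon-induced GTPase (1.11 ± 0.28, a call lost when the fit was limited to the 6 arrays, adjusted p = 0.1). The windows are IFI27 chr14:94110486-94110735 on the plus strand, IFIH1 chr2:162318685-162318934 on the minus strand and GBP1 chr1:89065209-89065458 on the minus strand, again from RefSeq on GRCh38.p14.
IFI27: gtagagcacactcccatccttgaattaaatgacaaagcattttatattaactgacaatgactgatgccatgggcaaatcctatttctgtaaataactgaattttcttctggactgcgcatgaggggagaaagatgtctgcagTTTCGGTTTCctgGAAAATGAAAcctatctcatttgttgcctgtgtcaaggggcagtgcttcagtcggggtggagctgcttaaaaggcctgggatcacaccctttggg
IFIH1: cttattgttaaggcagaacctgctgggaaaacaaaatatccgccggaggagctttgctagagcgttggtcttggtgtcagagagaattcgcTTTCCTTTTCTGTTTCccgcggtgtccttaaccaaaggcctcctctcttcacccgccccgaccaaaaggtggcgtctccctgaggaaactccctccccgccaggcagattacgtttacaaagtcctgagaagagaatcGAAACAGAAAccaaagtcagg
GBP1: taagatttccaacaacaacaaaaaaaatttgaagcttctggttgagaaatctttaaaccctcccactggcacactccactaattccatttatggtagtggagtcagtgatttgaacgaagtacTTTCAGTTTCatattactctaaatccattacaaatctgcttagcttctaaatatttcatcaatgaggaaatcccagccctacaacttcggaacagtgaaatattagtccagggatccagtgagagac
The element occurred in 25 of the 43 list promoters available (58.1%) and in 3.07% of all promoters. It occurred in 4.23% of the promoters of genes called higher and in 2.48% of those of the genes tested.

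**Figure D4:**
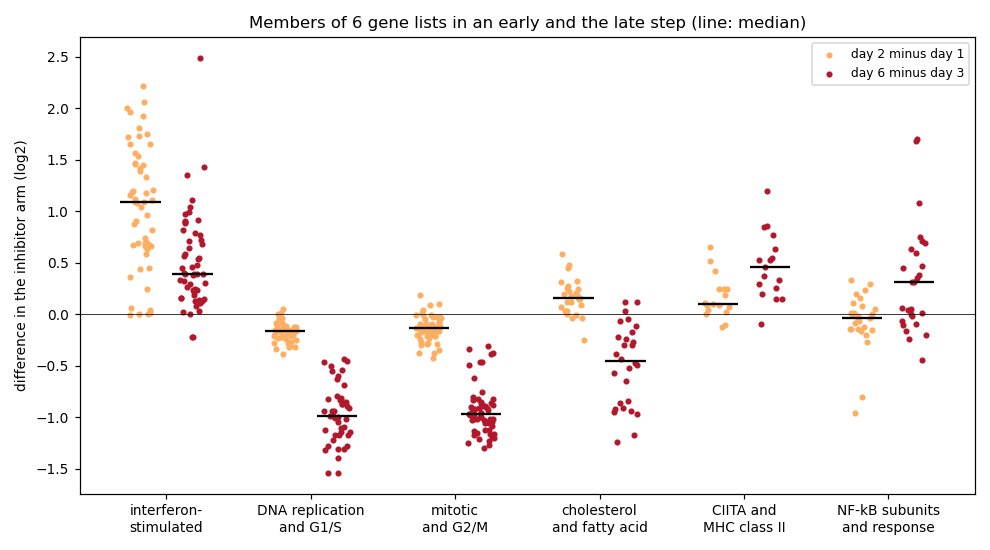
Differences (log2) of the members of 6 gene lists in the inhibitor arm, with day 2 minus day 1 in orange and day 6 minus day 3 in red; lines are list medians. The interferon-stimulated median is 1.09 in the early and 0.39 in the late step, the replication median is -0.16 and -0.99, and the NF-kB median is -0.04 and 0.31.

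The early step, day 2 minus day 1 of treatment, shares no array with the late one. Of the 151 genes higher early 82 were also higher late, which is 54.3% of the early genes and 4.1% of the late ones, with 10.1% of all genes higher late. Of the 33 lower early 23 were also lower late, 69.7% of the early and 1.1% of the late genes, with 10.6% of all genes lower late. Both overlaps rest on the unsteady early count. The replication list had 1 of 45 members lower in the early step and the mitotic list 2 of 59, with medians of -0.16 and -0.13. The late interval covers 3 days and the early one 1 day, so sizes are not rates. CDC6 had a mean of 9.12 under the inhibitor and 9.40 in DMSO at day 2, and of 7.40 and 9.43 at day 6. BUB1 had 9.66 under the inhibitor and 9.74 in DMSO at day 3, and 8.39 and 9.72 at day 6.

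**Figure D5:**
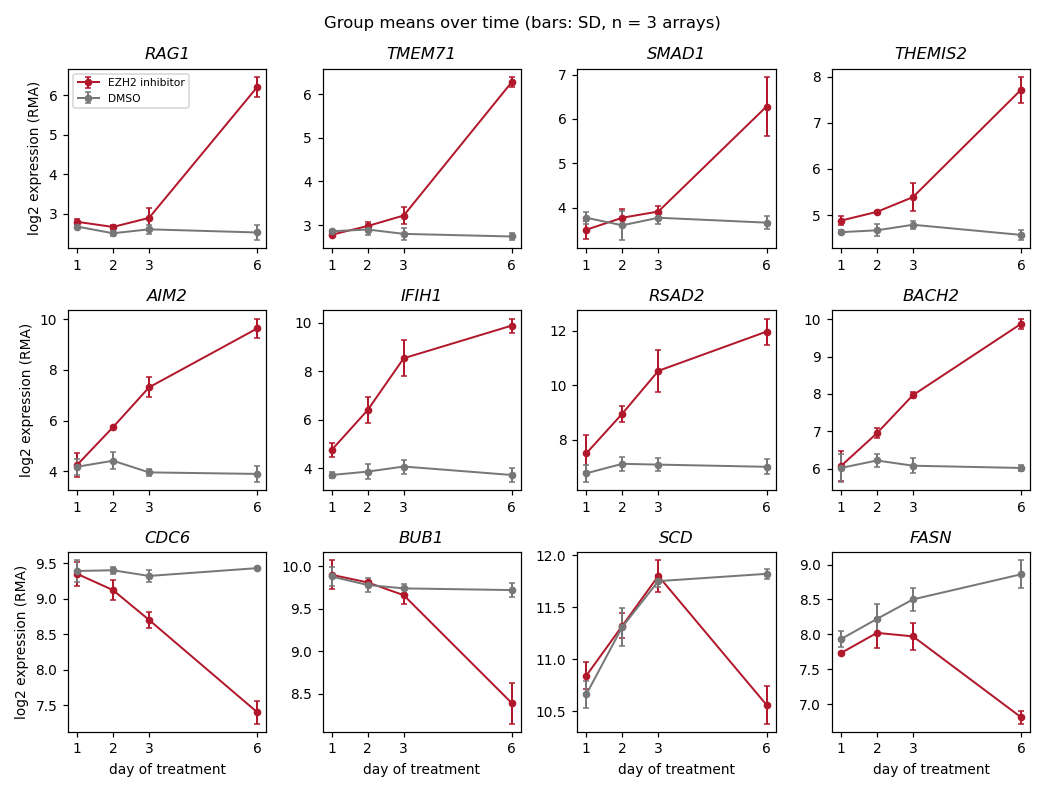
Group means of log2 expression (RMA) on days 1, 2, 3 and 6 for the EZH2 inhibitor (red) and DMSO (grey), with bars of 1 SD over 3 arrays. RAG1, TMEM71 and SMAD1 lie close to the DMSO line at day 3 and far above it at day 6, AIM2, IFIH1 and BACH2 climb at every time point, and SCD runs with DMSO through day 3 before it falls to 10.56 at day 6, against 11.82 in DMSO.

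B cell genes rose in part. Of 32 genes of the B cell receptor complex and its signalling 15 rose (46.9%, against 10.1% of all genes) and 0 fell, with a median of 0.30. CD79B, a signalling chain of the receptor, had 11.30, 11.73 and 11.77 at day 6 against 10.54, 10.76 and 10.90 at day 3, a difference of 0.86 ± 0.11 (adjusted p = 6.9e-06), with 1 of its 3 probe sets called. CD79A, its partner chain, differed by 0.19 and did not pass the test (adjusted p = 0.18). SYK, the kinase recruited by both chains, had 11.04, 11.40 and 11.20 at day 6 against 10.31, 10.50 and 10.40 at day 3 (0.81 ± 0.09), with all 4 probe sets called. The inhibitory receptor genes CD72 and FCRL3 rose by 1.90 ± 0.24 and 1.53 ± 0.24, and PRKCB, the kinase between the receptor and NF-kB, by 1.16 ± 0.15.

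Germinal centre B cell genes rose in 9 of 29 cases and fell in 1 (31.0% and 3.45%, against 10.1% and 10.6% of all genes). Without inhibitor day 3 replicate 1 the count of higher members was 5. BACH2, a repressor that holds off plasma cell differentiation, had 9.75, 10.04 and 9.85 at day 6 against 7.88, 7.99 and 8.04 at day 3, a difference of 1.91 ± 0.17 (adjusted p = 5.7e-08). BCL6, the master repressor of the germinal centre, differed by -0.03. MME, which encodes CD10, rose by 0.53 ± 0.08. Plasma cell genes were mixed, with 7 higher and 4 lower of 31 (22.6% and 12.9%, against 10.1% and 10.6% of all genes). The count of higher members was 4 without inhibitor day 6 replicate 3. JCHAIN, which joins secreted antibody chains, had 11.88, 11.10 and 11.50 at day 6 against 9.51, 10.18 and 10.21 at day 3 (1.53 ± 0.35). CD38 rose by 0.92 ± 0.21 and PRDM1, the gene of the plasma cell factor Blimp-1, by 0.29, while MANF, a secretory stress protein gene, fell by 0.67. SDC1, the plasma cell surface marker CD138, had 6.33, 6.86 and 6.84 at day 6 against 7.34, 7.31 and 7.36 at day 3, a fall that lost its call without inhibitor day 6 replicate 1 (adjusted p = 0.072).

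Among TGF-beta, SMAD and ID genes 8 of 28 rose (28.6%, against 10.1% of all genes) and 0 fell. Without inhibitor day 6 replicate 3, 5 of them rose. ID2, an inhibitor of E protein transcription factors, had 9.38, 10.68 and 10.68 at day 6 against 8.44, 8.94 and 8.74 at day 3 (1.54 ± 0.26), and the receptor genes BMPR2 and TGFBR1 rose by 0.93 ± 0.14 and 0.73 ± 0.15. Of 30 immediate early and MAPK feedback genes 7 rose and 4 fell (23.3% and 13.3%, against 10.1% and 10.6% of all genes). DUSP6, a phosphatase that switches off ERK, had 11.48, 11.67 and 11.55 at day 6 against 10.38, 10.21 and 10.47 at day 3, a difference of 1.21 ± 0.14. SPRED2, another brake on the pathway, rose by 1.02 ± 0.12, with 1 of its 3 probe sets called. In the BCL2 family 5 of 20 genes were higher and 2 lower, where 10.1% of all genes were higher and 10.6% lower. Among the higher members, PMAIP1 and BCL2A1 were joined by BIK, a pro-apoptotic gene (0.74 ± 0.18), MCL1 and BCL2L2. The change of MCL1, an anti-apoptotic member, was 0.59 ± 0.08 on its brightest probe set and lost its call on the mean of its 6 probe sets (adjusted p = 0.42). BCL2 differed by 0.10.

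The PRC2 genes themselves fell in part. EZH2, the target of the inhibitor, had 9.70, 9.55 and 9.45 at day 6 against 10.08, 9.97 and 9.94 at day 3, a difference of -0.43 ± 0.12 (adjusted p = 0.0098). The arrays did not overlap, but the call was lost without inhibitor day 6 replicate 3 (adjusted p = 0.054) or inhibitor day 3 replicate 1 (adjusted p = 0.05), and the difference between arms, -0.35, did not pass the test (adjusted p = 0.19). Since the inhibitor acts on the enzyme and not on its transcript, this level is no check of the treatment labels. Of 12 PRC2 subunits 6 fell and 3 rose, where 10.6% of all genes fell and 10.1% rose. As single arrays were left out, 4 to 7 of the 12 fell and 1 to 3 rose. PHF19, a Polycomb-like accessory subunit, had 8.68, 8.67 and 8.72 at day 6 against 9.91, 9.79 and 9.96 at day 3, a difference of -1.20 ± 0.10 (adjusted p = 3.1e-08), with 3 of 3 probe sets called. PHF1, its relative, had 9.22, 9.51 and 9.74 at day 6 against 8.61, 8.65 and 8.82 at day 3 (0.80 ± 0.10). The core subunit gene SUZ12 fell by 0.34 and EED differed by -0.05. EZH1, the alternative catalytic subunit, was called higher (0.41 ± 0.12), but of its 5 probe sets 1 was higher and 1 lower, and 1 of the 12 genes was called higher instead of 3 on the mean of probe sets, and likewise without inhibitor day 6 replicate 3 or inhibitor day 3 replicate 1.

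Other chromatin genes divided about evenly, 9 higher and 10 lower of 55 (16.4% and 18.2%, against 10.1% and 10.6% of all genes). NSD2, the H3K36 methyltransferase, had 8.59, 8.56 and 8.54 at day 6 against 9.61, 9.39 and 9.39 at day 3 (-0.90 ± 0.10), and SUV39H2, an H3K9 methyltransferase, differed by -0.87. CREBBP, the acetyltransferase that acts on H3K27, had 9.24, 9.52 and 9.47 at day 6 against 8.18, 8.58 and 8.55 at day 3, a difference of 0.98 ± 0.11 (adjusted p = 1.5e-06). CBX7, which reads the H3K27 mark, rose by 0.85 ± 0.11. Replication-type histone genes rose in 13 of 35 cases (37.1%, against 10.1% of all genes) and fell in 0. Whether these values reflect histone transcripts made in S phase was not tested. H2AC6 had 9.21, 10.31 and 10.35 at day 6 against 6.33, 7.07 and 8.02 at day 3 (2.82 ± 0.32), and the linker histone gene H1-2 had 8.86, 9.44 and 9.36 at day 6 against 7.23, 7.65 and 8.11 at day 3 (1.56 ± 0.19). The median of the histone list was 0.09, and with the dimmest 40% of genes left out 7 members were higher. Histone copies are nearly identical, so probe sets may not tell them apart.

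Developmental transcription factors, a textbook class of PRC2 targets, changed little in the late step. Of 78 measured genes 4 rose and 6 fell (5.13% and 7.69%, against 10.1% and 10.6% of all genes), and the median was -0.07. The list as a whole was dim on these arrays, with list means of 4.95 to 4.96 at day 6 and 5.01 to 5.05 at day 3. PBX3, a HOX partner, had 8.44, 8.76 and 8.91 at day 6 against 7.34, 7.43 and 7.80 at day 3 (1.18 ± 0.16), and HOXB3 rose by 0.89 ± 0.13. DLX2 had 5.78, 5.45 and 6.03 at day 6 against 7.56, 7.14 and 7.18 at day 3, a difference of -1.54 ± 0.33 (adjusted p = 0.0014), and WT1 differed by -1.17 ± 0.21. For DLX2 and WT1 the day 6 arrays lay below those of day 3, but the difference between arms did not pass the test for either. DLX2, WT1 and HOXB3 each had 1 of 2 probe sets called. DLX2 had DMSO means of 6.27 at day 6 and 6.76 at day 3, and a difference between arms of -1.05 (adjusted p = 0.16). WT1 had DMSO means of 5.14 at day 6 and 5.68 at day 3, and a difference between arms of -0.62 (adjusted p = 0.21). The amino acid and ER stress list had 1 gene higher, a call lost without most single arrays, and 2 lower of 33. Its median was -0.06 under the inhibitor and -0.25 in DMSO, the lowest DMSO median of the lists compared. Replicates 1, 2 and 3 of DMSO day 3 had 10.14, 11.09 and 10.81 for SHMT2 of this list. They had 11.08, 11.47 and 11.09 for XPOT and 6.14, 6.43 and 6.46 for PPP1R15A. The DMSO median was not recomputed without single DMSO arrays.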

How the data were processed

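Total RNA of 24 Karpas422 samples was hybridised to Affymetrix U133 Plus 2 arrays. The authors deposited 1 normalized table of log2 values made with RMA, which the submitters' processing notes list with R 2.10.1; the base of the log is not given in the sources used here and was taken as 2 from the range of 1.72 to 14.33. All columns matched a sample, and 0 were left unused. Of 54613 probe sets 41091 had a single gene symbol, 1801 had several and 11721 had none in the platform annotation, and 41037 symbols were updated through Entrez identifiers. The brightest probe set stood for each of 19775 genes. Counts of called probe sets are given for some named genes only. Others, such as DNAI1 (1 of 2 called) and CREBBP (2 of 4), also had probe sets without a call. RMA normalizes all arrays to 1 distribution, so a change shared by most genes would not show.

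A linear model of the 8 group means was fitted over the 24 arrays with limma 3.58.1 in R 4.3.3 (lmFit and eBayes), and the code was tested on simulated data. Genes were called at an adjusted p under 0.05. The 24 arrays leave 16 residual degrees of freedom and limit the precision. All samples of a group are labelled biological triplicates, with no date or batch given. Same-numbered inhibitor arrays of days 6 and 3 deviated together (r = 0.24, 0.13 and 0.25 across genes, for replicates 1, 2 and 3), so the numbers were taken as pairing these samples; the main model has no block. A naming rule picked EZH2, the B lineage markers and 16 called genes at each end of the ranked differences whose arrays did not overlap. It also picked the 8 highest and 8 lowest differences between arms, and up to 4 called members with the largest differences in each list. Not all genes of the rule are described in the text, and SLC12A8, NIM1K and SESN3 are among those left out. Other members named were chosen after their values were seen. The gene lists and the members of this comparison were chosen with earlier results of these data known. Alternatives were a replicate block, fits limited to the groups compared, the mean of probe sets, other scalings, no dim genes, array weights, trended variance and leaving out each array. The alternatives for DMSO alone and for day 2 against day 1 were chosen after seeing the data. Promoters were matched by symbol. Those shown belong to the called list members with the largest differences that held the motifs, with chromosome 8 left out. Some genes are not analysed here.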

Additional observations from a re-analysis of the deposited data

Results flagged for a closer look

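The day 6 minus day 3 change was called different between the inhibitor arm and the DMSO arm for 2474 genes, and the 8 highest and 8 lowest of these differences are given here. The higher ones (log2, inhibitor change minus DMSO change) were ZNF595 at 4.26, TNFRSF21 at 3.55, MPEG1 at 3.50, RAG1 at 3.39, TMEM71 at 3.12, PMAIP1 at 2.93, CXCR4 at 2.74 and TCL1A at 2.71. The lower ones were CHEK1 at -1.70, ORC1 at -1.66, COL9A3, a collagen gene, at -1.66, MCM10 at -1.61, MCM4 at -1.54, FASN at -1.52, DNAI1 at -1.51 and CDCA7, a cell division gene, at -1.45.

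Outside the genes compared, 13522 probe sets had several gene symbols or none. Of these 1263 (9.34%) were called between day 6 and day 3 under the inhibitor, 824 higher and 439 lower, against 0 between the same days in DMSO. Their genes were not identified here.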

How the results depend on the processing

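The counts for day 6 against day 3 under the inhibitor stayed within 1.5 times of the main counts in the alternatives run. Leaving out each array gave 3080 to 3831 called genes, 1477 to 1925 higher and 1603 to 1986 lower, and 166 to 257 higher and 77 to 155 lower at 2-fold or more. With the replicate block 5367 genes were called, 2588 higher and 2779 lower, and all 4090 main calls were kept. In the fit limited to the 6 arrays with that block, 3542 were called. The share of called genes that were higher stayed between 46.8% and 51.8%. Of 146 called genes picked by the naming rule, 122 were called in each alternative that gave them a value and 0 reversed. Some of the 146, such as STIP1 and NEU1, are not described above. For the difference between arms the block gave 3715 called and 1783 higher, and leaving out arrays 1871 to 2443 called, 872 to 1204 higher and 999 to 1303 lower. Over the 4 groups of days 3 and 6, 17 of 18 same-numbered pairs correlated above 0.1. In DMSO, leaving out arrays gave 0 to 33 called, 0 to 2 higher and 0 to 31 lower; the upper values are those without DMSO day 3 replicate 1.

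Day 2 against day 1 of treatment, with 184 calls, moved most. The block gave 674 called, 421 higher and 253 lower; the fit limited to its groups 59, 55 and 4; array weights 333, 232 and 101. Genes called lower numbered 74 with array medians subtracted and 75 without the dimmest 40%. Leaving out arrays gave 42 to 178 called, 36 to 143 higher and 6 to 35 lower. The cause was not tested. With the replicate block over 24 arrays, PAX5 alone of the genes named by the rule changed its day 6 against day 3 call; members named outside the rule were not recomputed singly. Dim genes near the array floor limit the fold that can be seen.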
